A study of Caenorhabditis elegans with 2 samples.

Results

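The genes described here are dpy-13 and 9 other cuticle collagens of Caenorhabditis elegans that are known for their effect on body shape, namely sqt-3, dpy-14, dpy-17, dpy-5, dpy-10, sqt-1, sqt-2, rol-6 and lon-3. They were chosen by name, dpy-13 because its double-stranded RNA was fed and the others as genes of the same superfamily. All 10 were found among the 45510 genes counted. The study asked which small RNAs the Argonaute NRDE-3 carries and whether nuclear RNA interference (RNAi) reaches genes other than its target. RNA bound to FLAG-tagged NRDE-3 was recovered from embryo lysates of animals kept at 20 °C, and molecules of 20 to 30 nt were sequenced by a method that takes in both monophosphate and triphosphate RNAs. The RNAi library served the study as a control.

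There were 2 groups with 1 library each. Wild type was N2 with 3xflag::gfp::nrde-3, grown on OP50 bacteria. The RNAi animals carried eri-1(mg366), dpy-13(e458) and the same 3xflag::gfp::nrde-3 transgene, and their larvae were placed on dpy-13 RNAi plates. The gene fed as trigger was therefore also mutant in that library, and the sources used here do not say what e458 changes in it. With 1 library a group no difference has a replicate check and no p-value is given. Genotype, food and library preparation cannot be told apart.

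In RNAi of this animal, Dicer cuts double-stranded RNA into small RNAs that find the matching transcript, and RNA-dependent RNA polymerases then copy that transcript into further small RNAs antisense to it. NRDE-3 binds such antisense RNAs in somatic cells and carries them to the nucleus, where they direct silencing of the gene that makes the transcript. eri-1 encodes an exonuclease whose loss makes animals more sensitive to fed double-stranded RNA. Cuticle collagens are short proteins of Gly-X-Y repeats that the hypodermis secretes for each new cuticle. Loss or change of a single one can make the animal short (dumpy), long, or twisted so that it rolls.

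Counted reads numbered 7693320 in wild type and 5537671 after RNAi, of which 44.6% and 22.2% were antisense to a transcript. Sense reads on ribosomal RNA alone made up 51.6% and 68.2% of the counted reads. Levels are reads per 1000000 counted reads (RPM), and levels per length are RPM per kilobase of exon. A count of 0 allows up to 3 reads, or 0.390 RPM in the wild-type and 0.542 RPM in the RNAi library. Intervals are exact at 95% and, like these floors, cover counting error only. Genes are called measured from 10 antisense reads upwards, both libraries added. Across the 5751 measured genes the median ratio of RNAi over wild type was 11.9-fold, so the ratio of each single gene below is to be read against that value. The 8 embryonic microRNA genes used to check the source had 2546 and 12571 sense reads, or 331 and 2270.1 RPM. The 4 matched of 5 larval microRNA genes had 2 and 21, or 0.260 and 3.79 RPM, so both sets were higher in the RNAi library. Of all reads on microRNA genes 99.9% and 99.5% were sense, so the sense column holds the strand of the transcript.

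dpy-13, the fed trigger, lies on chromosome IV at 4235614 to 4236710 (plus strand, WBcel235) and has 3 exons with 989 exonic bases. Its antisense reads numbered 1 in wild type and 115 after RNAi, which is 0.130 RPM (0.00329 to 0.724) and 20.8 RPM (17.1 to 24.9). The RNAi library was far above the wild-type library, with a ratio of 160 (28.1 to 6365), and the whole interval lay above the all-gene median. Its sense reads numbered 8 and 47, or 1.04 and 8.49 RPM, a ratio of 8.16 (3.82 to 20.0). Antisense reads made up 71.0% (63.3 to 77.8) of its reads in the RNAi library. By number of antisense reads in that library dpy-13 ranked 400th among 20524 protein-coding genes, and the first, unc-119, had 98201.

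sqt-3 encodes a collagen that is needed from the embryo onwards, and it held most of the antisense reads of the 10 genes. It lies on chromosome V at 12352745 to 12354320 (plus strand). Its antisense reads numbered 0 in wild type and 3994 after RNAi, the latter being 721 RPM (699 to 744). With the wild-type count set at 3 reads the ratio was 1849.6, and the exact lower limit was 1503. The 3994 reads were 92.3% (Wilson interval 91.4 to 93.0) of the 4328 antisense reads on the 10 genes, against 2.66% (2.22 to 3.18) for dpy-13. Ranked by antisense reads it was the 4th protein-coding gene of the RNAi library, and none of the 5027 measured protein-coding genes had a higher log2 ratio.

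The wild-type library did hold sqt-3 sequence, but on the other strand. Sense reads numbered 602 and 1864, or 78.2 RPM (72.1 to 84.8) and 337 RPM (321 to 352), a ratio of 4.30 (3.92 to 4.72). With 602 sense reads and no antisense read, the antisense share of sqt-3 in wild type had an upper limit of 0.611% (exact binomial). In the RNAi library that share was 68.2% (67.0 to 69.4). A noncoding gene on the opposite strand, F23H12.13, shares 144 exonic bases with sqt-3, and it had 0 and 3 reads on its own sense strand.

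**Figure D1:**
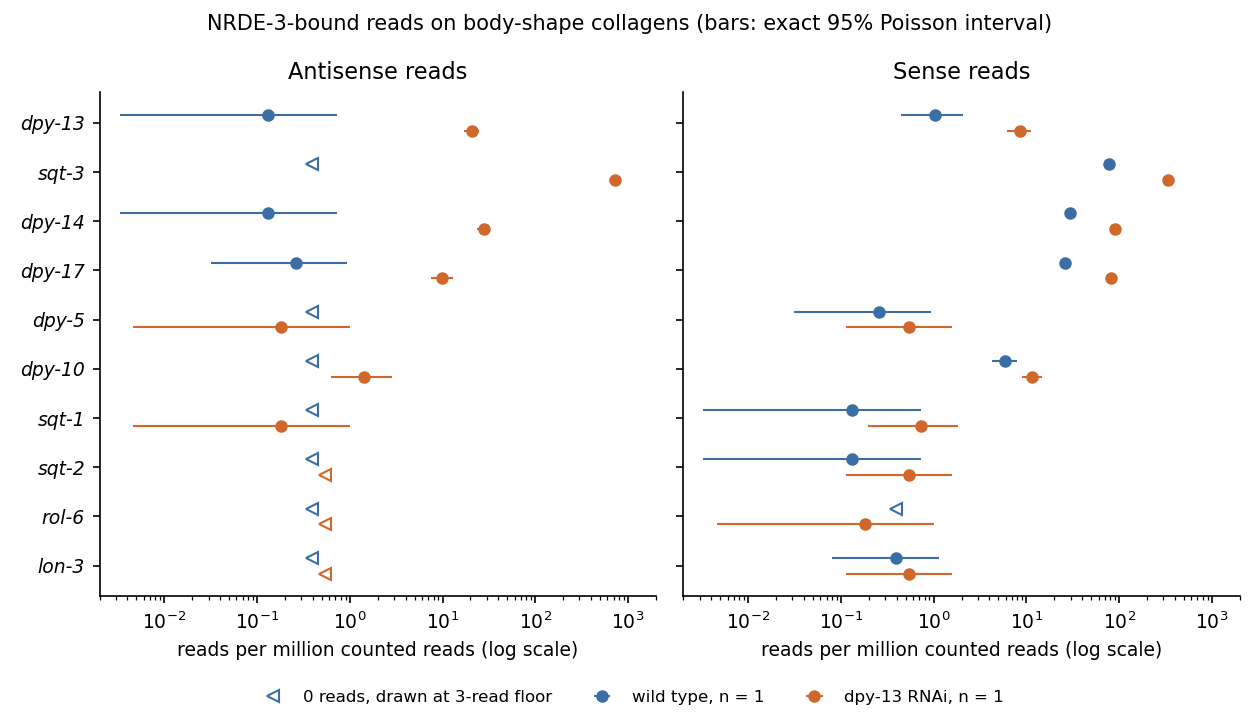
Antisense (left) and sense (right) RPM on a log axis for the 10 collagens, with 1 library each of wild type (blue) and dpy-13 RNAi (orange). Bars are exact 95% Poisson intervals, and open triangles are counts of 0 drawn at the 3-read floor. On the left dpy-13, sqt-3, dpy-14 and dpy-17 are widely separated between the libraries, from 9.93 RPM for dpy-17 to 721 RPM for sqt-3 after RNAi. dpy-10 is separated more narrowly, with 0 reads in wild type and 1.44 RPM (0.624 to 2.85) after RNAi. sqt-2, rol-6 and lon-3 have no antisense read in either.

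dpy-17, which acts genetically with sqt-3 and with the procollagen protease dpy-31, and dpy-14, whose mutants are dumpy, were also higher in antisense reads after RNAi. dpy-14 (chromosome I, 6843589 to 6845142, plus strand) had 1 and 154 antisense reads, or 0.130 and 27.8 RPM, a ratio of 214 (37.8 to 8505). dpy-17 (chromosome III, 5107330 to 5108492, plus strand) had 2 and 55, or 0.260 and 9.93 RPM, a ratio of 38.2 (10.1 to 323). The interval of dpy-14 lay wholly above the all-gene median of 11.9-fold, and that of dpy-17 contained it. Both genes were rich in sense reads in both libraries, with 227 and 506 on dpy-14 and 202 and 448 on dpy-17. Their sense ratios were 3.10 (2.64 to 3.64) and 3.08 (2.60 to 3.66), near the median sense ratio of 2.89-fold over 7591 genes with 10 or more sense reads.

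dpy-10 (chromosome II, 6710149 to 6712227, minus strand) is one of the collagens that form the ring-shaped furrows of the cuticle. Its antisense reads numbered 0 and 8, which is under the minimum for a measured gene, and the exact lower limit of its ratio was 2.37. Its sense reads numbered 45 and 64, a ratio of 1.98 (1.33 to 2.96). By count it thus had more sense reads than dpy-13 in both libraries and far fewer antisense reads after RNAi. Per length its sense level was not the higher one after RNAi. It was 7.25 RPM per kilobase (5.59 to 9.26), against 8.58 (6.31 to 11.4) for dpy-13. Part of it, 780 exonic bases, is shared on the same strand with T14B4.19, for which no counts were used here.

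The other 5 genes had almost no reads on either strand. dpy-5 (chromosome I), whose loss makes animals dumpy, and sqt-1 (chromosome II), whose mutants can be dumpy or roll, each had 0 antisense reads in wild type and 1 after RNAi. sqt-2 (chromosome II), named for squat mutants, rol-6 (chromosome II), whose dominant allele is the common roller marker for transgenes, and lon-3 (chromosome V), whose loss makes animals long, had 0 in both. A count of 0 allows 0.542 RPM in the RNAi library, so antisense RNA on these genes was not detectable at this depth and is not shown to be absent. Together the 5 genes had 7 and 14 sense reads. lon-3 overlaps the span of ogdh-2 on the opposite strand and shares 0 exonic bases with it.

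Per length, the order of antisense levels in the RNAi library was led by sqt-3 at 507 RPM per kilobase (492 to 523). dpy-14 followed with 26.4 (22.4 to 30.9) and dpy-13 with 21.0 (17.3 to 25.2), whose intervals overlap. dpy-17 had 8.94 (6.73 to 11.6), dpy-10 0.907 (0.392 to 1.79), dpy-5 0.211 (0.00535 to 1.18) and sqt-1 0.173 (0.00438 to 0.964), and the last pair could not be told apart. The collagen whose double-stranded RNA was fed was neither first nor separable from dpy-14 in this order.

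Per length, the order of sense levels placed dpy-17 above dpy-13 in both libraries. In the wild-type library sqt-3 had 55.0 sense RPM per kilobase (50.7 to 59.6), dpy-14 28.0 (24.5 to 31.9) and dpy-17 23.6 (20.5 to 27.1). dpy-10 had 3.67 (2.68 to 4.91) and dpy-13 1.05 (0.454 to 2.07). In the RNAi library the sense levels per kilobase were 237 for sqt-3, 86.8 for dpy-14 and 72.8 for dpy-17. There dpy-13 had 8.58 (6.31 to 11.4) and dpy-10 7.25 (5.59 to 9.26), whose intervals overlap. Among 176 cuticle collagens (156 numbered col genes, the 10 genes here and 10 further body-shape collagens), sqt-3, dpy-14 and dpy-17 ranked 1, 2 and 3 by sense level in the wild-type library and again 1, 2 and 3 in the RNAi library. By antisense level in the RNAi library they ranked 1, 5 and 17. dpy-13 ranked 53 and 27 by sense level and 7 by antisense level. The 10 genes held 42.9% of the sense reads on these collagens in the wild-type library, 46.3% in the RNAi library and 63.8% of the antisense reads in the RNAi library. Of these same totals sqt-3 alone held 23.7%, 29.3% and 58.8%, so most of the antisense share was that of 1 gene. In such bulk material fewer cells of a type and less RNA per cell cannot be told apart.

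**Figure D2:**
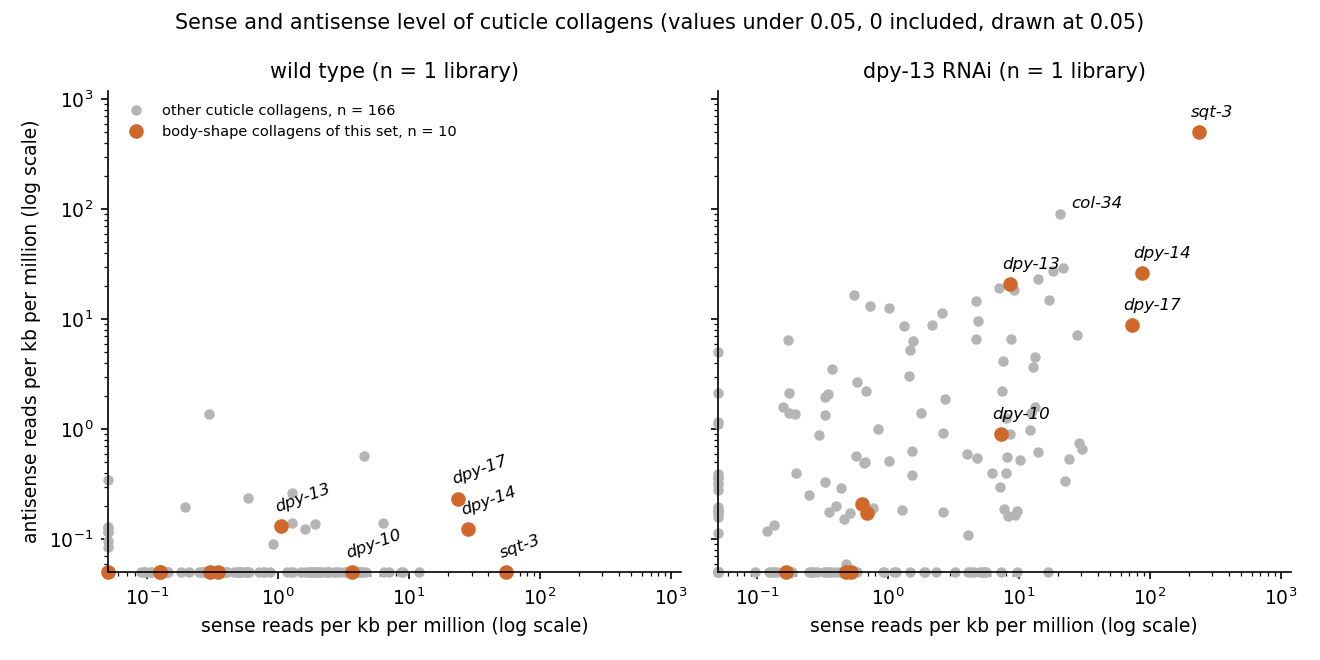
Sense against antisense RPM per kilobase, both on log axes, for 176 cuticle collagens in the wild-type library (left) and the RNAi library (right), 1 library each. Orange points are the 10 body-shape collagens and grey points the other 166, and values under 0.05 are drawn on the axis. In wild type sqt-3, dpy-14 and dpy-17 stand to the right with antisense levels near 0, and after RNAi sqt-3 is in the upper right corner at 507 antisense RPM per kilobase.

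The balance of the strands in the RNAi library separated the genes with many reads. There were 2.45 antisense reads per sense read on dpy-13 and 2.14 on sqt-3. dpy-14 had 0.304, dpy-10 0.125 and dpy-17 0.123. Over 5710 protein-coding genes with 10 or more sense reads in that library the median was 0.357, with quartiles of 0.121 and 0.800. dpy-13 and sqt-3 stood above 94.0% and 92.8% of these genes, dpy-14 above 44.6%, dpy-10 above 25.3% and dpy-17 above 25.1%. In the wild-type library the median over 3870 genes was 0.0686, with quartiles of 0 and 0.154. There sqt-3 and dpy-10, with 0 each, and dpy-14 and dpy-17, with 0.00441 and 0.00990, were below the median.

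A size rule was applied to all genes, namely a measured gene, at least 10 RPM in whichever library was higher, at least a 4-fold ratio, and an interval wholly beyond 2-fold. The genes dpy-13, sqt-3 and dpy-14 met it as higher after RNAi, 3 of the 10, and 0 of the 10 met it as lower. Of all measured genes 18.6% met it as higher and 2.63% as lower. Only 4 of the 10 were measured, and a gene could be so through the RNAi library alone. Of all 20524 protein-coding genes, measured or not, 4.51% met the rule as higher. dpy-17 fell just outside the rule, since its 9.93 RPM lies under the minimum of 10. By sense reads 1 of the 10, sqt-3, met the same rule as higher, against 7.54% of measured genes and 2.04% of all protein-coding genes, and 0 of the 10 met it as lower, against 0.263%. The sense reads of dpy-13 had a ratio of 8.16 (3.82 to 20.0), but their 8.49 RPM lies under the minimum of 10. Without the filter on low counts dpy-17 joined the antisense calls, which made 4 of the 10, against 19.6% of protein-coding genes.

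Most genes were higher in the RNAi library by RPM, and trimmed-mean scaling of antisense reads (TMM) lowered the all-gene median log2 ratio from 3.58 to 0.37. Under TMM dpy-13, sqt-3 and dpy-14 still met the rule, while the share of measured genes doing so as higher went from 18.6% to 1.43%. Scaling to microRNA sense reads gave the same 3 genes, beside 11.6% of measured genes. Of all genes meeting the rule 12.4% were lower under RPM and 66.8% under TMM. The TMM log2 ratios were 3.53 for dpy-13, 10.23 for sqt-3 and 3.95 for dpy-14, and 1.73 for dpy-17, with 0.5 added to each count. These lie 3.16, 9.86, 3.58 and 1.37 above the all-gene median, and scaling does not alter those distances.

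**Figure D3:**
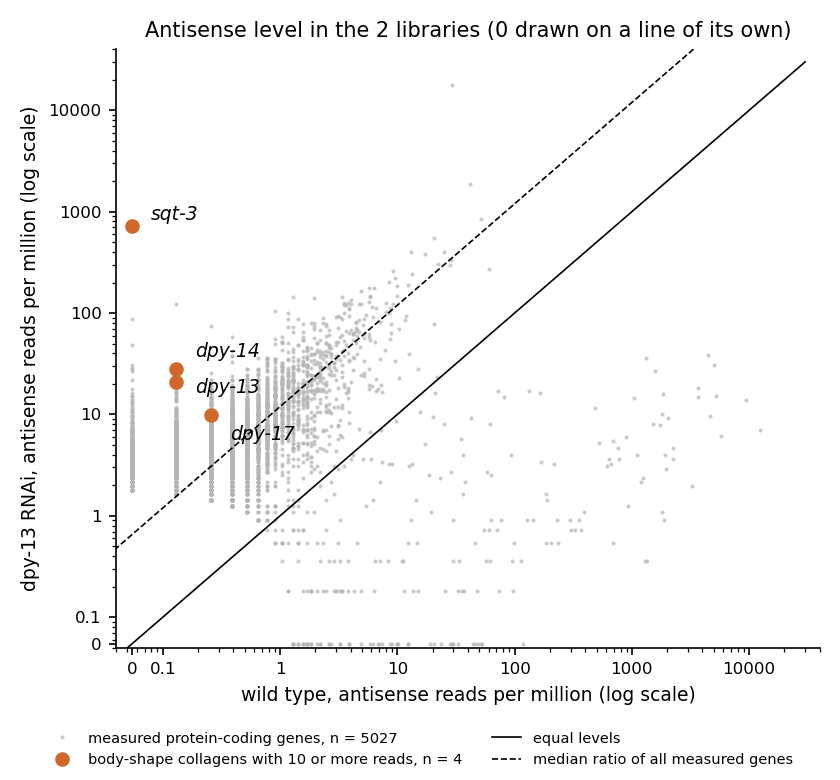
Antisense RPM in the wild-type (x) and the RNAi library (y) on log axes, with 0 on a line of its own, for 5027 measured protein-coding genes (grey) and the 4 body-shape collagens that were measured (orange). The solid line marks equal levels and the dashed line the median ratio of 11.9-fold. dpy-13, dpy-14 and sqt-3 lie above the dashed line with 1, 1 and 0 wild-type reads, and dpy-17 is closest to it.

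Over all protein-coding genes together antisense reads were lower after RNAi, with 824649 and 386477 reads and a ratio of 0.651 (0.649 to 0.654), although 95.1% of measured genes had a log2 ratio above 0. Summed over the 9 collagens other than dpy-13, antisense reads numbered 3 and 4213, or 0.390 and 761 RPM, a ratio of 1951 (667 to 9464). Without sqt-3 the other 8 had 3 and 219 reads, a ratio of 101 (34.2 to 496), and 217 of the 219 reads were on dpy-14, dpy-17 and dpy-10. The 156 numbered col genes had 37 and 2292, a ratio of 86.1 (62.2 to 123), so the 8 collagens and the numbered ones had overlapping intervals. Of those 156 genes 32 were measured, and 11 met the size rule as higher and 0 as lower, beside 18.6% of all measured genes and 4.51% of all protein-coding genes. Over all 10 genes the median log2 ratio was 3.31 with 0.5 added to each count, against 0.47 for all protein-coding genes, which is the value of a gene with no read in either library. Any antisense read was present on 3 of the 10 genes in wild type and on 7 of 10 after RNAi, against 31% and 51.2% of all protein-coding genes.

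Among 10 further body-shape collagens (dpy-2, dpy-3, dpy-4, dpy-7, dpy-8, dpy-9, bli-1, bli-2, bli-6 and rol-8) 5 were measured. Of these 1 met the size rule as higher, beside 18.6% of all measured genes, and 0 as lower, and over all 10 the median log2 ratio was 2.85. The gene that met it was dpy-3, a furrow collagen, whose antisense counts were 0 and 98. With the 0 set at 3 reads its ratio was 45.4, and the exact lower limit was 36.2. bli-6, named for blistered cuticle, had 0 and 28 antisense reads and was under the level minimum. dpy-7, another furrow collagen, counted 5 and 8, a ratio of 2.22 (0.641 to 8.64). Its interval lay below the all-gene median.

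A list of genes for the processing of collagens or of the cuticle included 6 with 10 or more antisense reads. Of the 16 genes in that list (dpy-18, phy-2, phy-3, pdi-1, pdi-2, let-268, dpy-11, dpy-31, bli-3, bli-4, bli-5, mlt-7, nas-6, nas-36, nas-37 and adt-2) 2 met the size rule as higher and 0 as lower, beside 4.51% of protein-coding genes as higher, and the median log2 ratio over the 16 was 1.09. dpy-31, the protease that trims the SQT-3 precursor, had antisense counts of 8 and 88, a ratio of 15.3 (7.43 to 36.5). bli-3, the dual oxidase that cross-links cuticle proteins, had 3 and 92, a ratio of 42.6 (14.1 to 210). phy-2, a prolyl hydroxylase subunit, had no antisense read in either library beside 15 and 66 sense reads. Summed over the list the reads numbered 33 and 305, a ratio of 12.8 (8.95 to 19.0).

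The pathway of the TGF-beta ligand DBL-1 sets body size in this animal. Of its 10 listed genes (dbl-1, sma-6, daf-4, sma-2, sma-3, sma-4, sma-9, sma-10, lon-1 and lon-2) 3 were measured, and 1 met the rule as higher, beside 18.6% of all measured genes, and 0 as lower. The median log2 ratio over the 10 was 2.06, which is the value of a gene with 0 and 1 reads. The gene that met it, sma-9, a zinc finger cofactor, had antisense counts of 4 and 79, a ratio of 27.4 (10.3 to 103). sma-3, a Smad protein, had 1 and 23, a ratio of 32.0 (5.19 to 1316), and was under the level minimum. The ligand gene dbl-1 had no antisense read in either library.

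**Figure D4:**
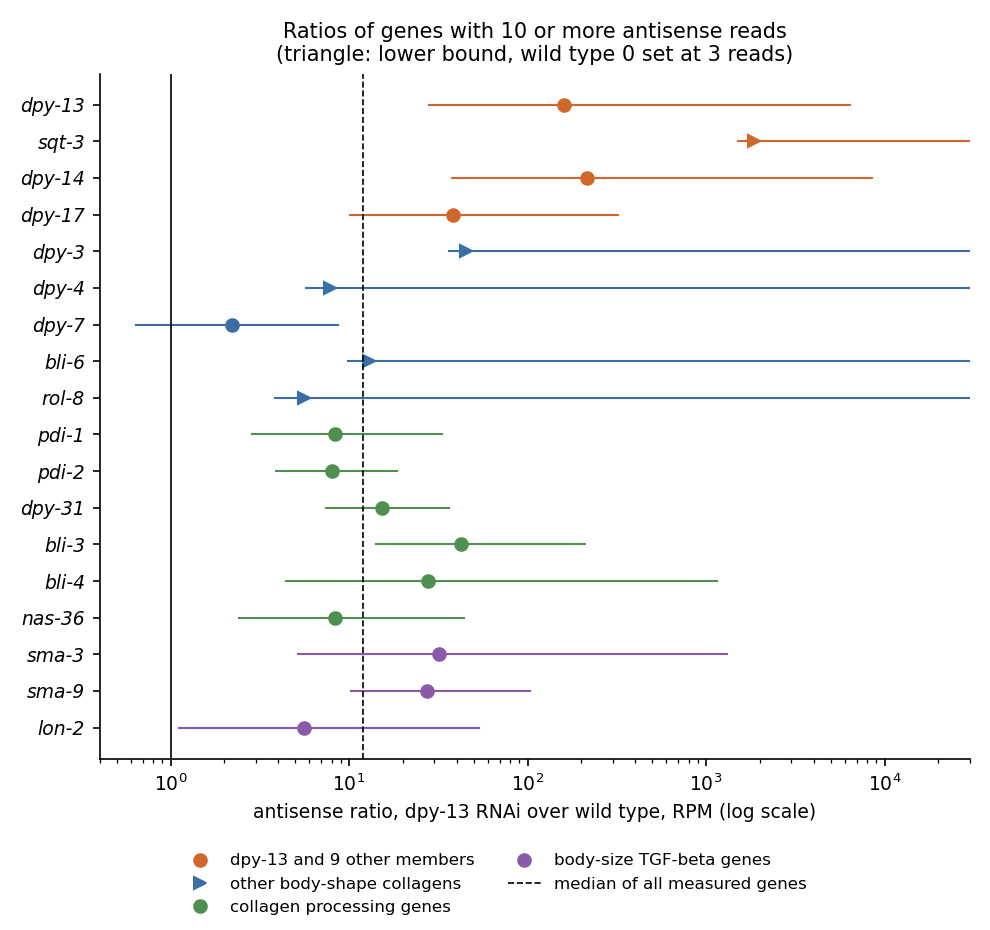
Ratio of antisense RPM, RNAi over wild type, on a log axis for each gene of the 4 groups that had 10 or more antisense reads. Lines are exact 95% intervals. Triangles are ratios with a wild-type count of 0 set at 3 reads, and their intervals have no upper limit. The solid line marks equal levels and the dashed line the all-gene median of 11.9-fold. sqt-3 is farthest to the right at 1849.6 (exact lower limit 1503), followed by dpy-14 at 214 and dpy-13 at 160.

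Around dpy-13 the number of antisense reads in the RNAi library differed between genes. Within 20 kb, a window chosen after the values were seen, 14 other genes had counts listed and 8 of them had an antisense read in either library. zipt-2.2, which ends 249 bases before dpy-13, had 0 antisense and 0 sense reads in both libraries. linc-26, which begins 1463 bases after dpy-13, also had 0 on both strands in both. Neither transcript was thus detected on any strand, and their antisense counts of 0 say little. Spread of antisense RNA from dpy-13 was not tested. col-34, a collagen 6835 bases after dpy-13 on the opposite strand, had 0 and 480 antisense reads, or 86.7 RPM in the RNAi library. With the 0 set at 3 reads its ratio was 222, and the exact lower limit was 180. Per length it had 89.9 antisense RPM per kilobase (82.1 to 98.3), above dpy-13 and second to sqt-3 among the 176 collagens. ama-1, the gene of the largest RNA polymerase II subunit, had 55 and 451 reads, a ratio of 11.4 (8.60 to 15.4), near the all-gene median.

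**Figure D5:**
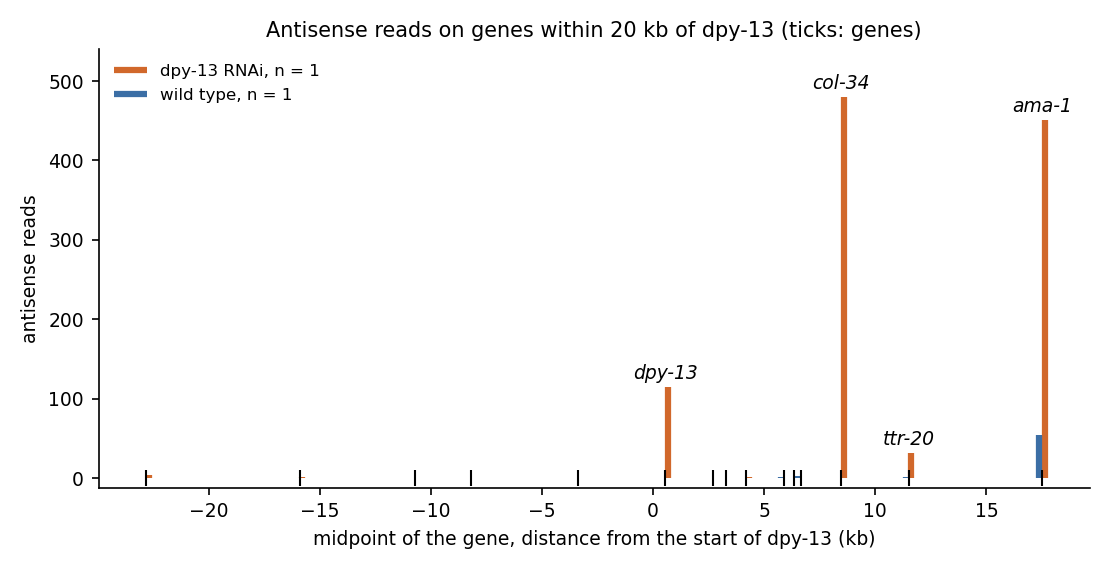
Antisense reads on the y axis for dpy-13 and 14 genes within 20 kb of it, against the distance in kilobases of each gene's midpoint from the start of dpy-13, with 1 library each of wild type (blue) and dpy-13 RNAi (orange). Ticks mark all genes. In the RNAi library col-34 with 480 reads and ama-1 with 451 exceed dpy-13 with 115, and the genes directly beside dpy-13 have 0 to 2.

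The genes most like dpy-13 were found by distance over 4 values, the log2 of RPM plus 0.5 for both strands in both libraries. The nearest 5 protein-coding genes were cec-4, a chromodomain protein of the nuclear periphery, at a distance of 0.397, mlt-8, a molting gene, at 0.489, dpy-3 at 0.584, pry-1, an Axin homologue, at 0.596 and alh-9, an aldehyde dehydrogenase, at 0.658. Their antisense reads were 1 and 140 for cec-4, 1 and 87 for mlt-8, 0 and 98 for dpy-3, 1 and 131 for pry-1 and 1 and 75 for alh-9. These 5 genes were picked for closeness to dpy-13 on the same values, so that closeness is no finding about the trigger. cec-4 lies on chromosome IV like dpy-13, and the rest lie on 4 other chromosomes.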

How the data were processed

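The values deposited by the authors are raw counts per transcript, sense and antisense. The series' design text names Bowtie2 with default settings and the WS243 transcriptome, and gives no version. At such settings a read that matches several places is listed at 1, which could move reads between collagens that share a stretch. No sequences were compared here, so this was not tested. Lines lacking fields (2 and 3, with 2 and 9 reads) were left out.

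Counts of 56374 transcripts were summed per gene, and genes were matched by identifier to Ensembl 115 (WBcel235; 44852 matched, 658 not) for symbols, positions and exonic lengths. Ratios of RPM carry the exact Clopper-Pearson interval of the binomial split. Python 3.11.15, scipy 1.17.1 and, for TMM, edgeR 4.0.16 were used, and the code was tested on simulated counts. Named by rule were all 10 genes, list genes meeting the size rule, col-34, unc-119 and the 5 genes nearest to dpy-13. bli-6, dpy-7, phy-2, sma-3, dbl-1, zipt-2.2, linc-26, ttr-20 and ama-1 were picked with their values in view. The 10 genes and the lists were chosen with earlier results of these data known. With 1 library in each of 2 groups no test was made.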

Additional observations from a re-analysis of the deposited data

How the results depend on the processing

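None of the ratios given here changed direction under any alternative, though many fell outside the interval of the main value. dpy-13, sqt-3 and dpy-14 met the size rule under all 4 other scalings. The values given here are for dpy-13, sqt-3, the 9 other genes summed and these without sqt-3, in that order. TMM gave ratios of 17.2, 199.6, 211 and 10.9, with an interval of 3.03 to 687 for dpy-13. Median-of-ratios factors gave 17.3, 201, 212 and 11. Scaling to microRNA sense reads gave 46.3, 536, 566 and 29.4, with an interval of 8.15 to 1846 for dpy-13, and lowered the all-gene median log2 ratio from 3.58 to 1.79. Sense reads in place of antisense reads gave 8.16, 4.30, 3.71 and 2.98, with 1 gene meeting the rule. Both strands added gave 25.0, 13.5, 9.09 and 3.59. Counting only the richest isoform took sqt-3 to 1282. Genes meeting the rule as higher numbered 1069 under RPM and 82 under TMM, of 5751. Without the filter on low counts 4 further body-shape collagens, 6 processing genes and 2 TGF-beta genes were higher, against 19.6% of protein-coding genes. With 5 added to each count the median log2 ratio of the 10 genes was 1.30 and not 3.31, since 5 of them had at most 1 antisense read. No paired analysis was possible because each group held 1 library. Depth limits the wild-type antisense values of the 10 genes, which rest on 0 to 2 reads a gene.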

Other observations

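The deposited tables list more than 1 transcript for 3 of the 10 genes. In the RNAi library the longer sqt-3 isoform, F23H12.4a, had 2769 antisense and 1099 sense reads, and F23H12.4b had 1225 and 765. In the current annotation they have 1422 and 708 exonic bases. In the wild-type library they had 365 and 237 sense reads and no antisense read. A read that matches both isoforms is listed under 1 of them, so these counts do not measure the isoforms themselves. Of the 8 antisense reads on dpy-10, 1 was listed under T14B4.7a and 5 and 2 under T14B4.7b.1 and T14B4.7b.2. The 1 antisense read on sqt-1 was listed under B0491.2.3.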
